A study of Mus musculus with 4 samples.

Results

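Messenger RNA of 7 genes of the IFIT and IFITM families, Ifit1, Ifit2, Ifit3, Ifit3b, Ifitm1, Ifitm2 and Ifitm3, was followed through 4 libraries of mouse embryonic fibroblasts (MEF cells). The 4 IFIT and 3 IFITM genes were taken by symbol from a deposited table of 54842 genes. They were selected on measured values of these same libraries, in which Ifit2 moved against its cluster neighbours, so the differences of the 7 genes between genotypes are given below as a description, with no test. Of the 7, 6 had enough counts to be fitted, and Ifitm1 did not. In cells without Top2β, Ifit1, Ifit3, Ifit3b and Ifitm3 were at 41.9, 3.24, 7.98 and 7.64 times their wild-type level, Ifitm2 at 1.23 times and Ifit2, by far the most abundant IFIT transcript, at 0.612 times.

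The study asked whether topoisomerase 2β bears on the transcription of major satellite repeats. The RNA, freed of ribosomal RNA, came from wild-type (wt) MEF cells in 2 libraries and from MEF cells null for Top2β, here called Top2β-null, in 2 others. All 4 libraries were untreated and grown in the same medium. Top2β is 1 of the 2 type II topoisomerases of the mouse, enzymes that pass one DNA duplex through another. The Top2β-null cells were a gift from other laboratories, so genotype cannot be told apart from the origin of the cells, and the sources used here do not say whether the 2 libraries of a genotype came from separate cultures. The p-values given for genes outside the 7 therefore measure the spread between these libraries, which may be technical. In bulk RNA, fewer cells expressing a gene and less RNA per cell cannot be told apart.

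IFIT proteins are cytoplasmic proteins built of tetratricopeptide repeats. IFIT1 binds RNA that lacks methylation of the cap-proximal ribose and blocks its translation, and IFIT2 and IFIT3 form a complex with each other. IFITM proteins are small membrane proteins; IFITM2 and IFITM3 reside largely in endosomes and restrict the fusion of enveloped viruses, while IFITM1 is found more at the cell surface. Most genes of both families are switched on by interferons through transcription factors that bind the interferon-stimulated response element (ISRE) in promoters, and a further promoter element of interferon signalling is the gamma-activated site (GAS).

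The IFIT genes lie on chromosome 19 of GRCm38, all 4 on the plus strand. Ifit2 spans 34550694 to 34576419, Ifit3 34583531 to 34588731, Ifit3b 34607970 to 34613401 and Ifit1 34640871 to 34650009. Between them, on the minus strand, lie the related genes Ifit1bl1 (34592891 to 34601956) and Ifit1bl2 (34617049 to 34640743). The IFITM genes lie on chromosome 7. Ifitm2 spans 140954837 to 140955987 and Ifitm3 141009586 to 141010770, both on the minus strand, and Ifitm1 spans 140967221 to 140969825 on the plus strand. Ifit1, Ifit3, Ifit3b, Ifitm2 and Ifitm3 each have 2 exons in 1 annotated transcript. Ifit2 has 2 annotated transcripts, which start at 34550694 and 34550710, and its last exon of 3353 bases makes up most of its 3927 exonic bases.

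To show what the promoters share, 300-base windows from RefSeq (GRCm38.p6) are printed for the genes on which the results turn, from 250 bases before to 50 bases after an annotated start, in the direction of transcription. Capitals mark the ISRE core, GAAANNGAAA, searched on both strands, so that a match on the minus strand is printed as its reverse complement. RefSeq starts can differ by some bases from the GENCODE starts above. Ifit1 and Ifit3 represent the IFIT genes that were higher in Top2β-null cells, Ifit2 is shown at both of its RefSeq starts, and Ifitm3 and Ifitm2 are the 2 abundant IFITM genes.
Ifit1, chr19:34640639-34640938, plus strand: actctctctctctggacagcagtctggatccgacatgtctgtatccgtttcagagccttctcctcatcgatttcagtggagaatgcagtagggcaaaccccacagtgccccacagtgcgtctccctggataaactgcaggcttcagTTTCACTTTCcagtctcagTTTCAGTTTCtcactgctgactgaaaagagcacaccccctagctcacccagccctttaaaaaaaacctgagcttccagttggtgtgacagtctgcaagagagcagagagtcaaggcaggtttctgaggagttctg
Ifit3, chr19:34583279-34583578, plus strand: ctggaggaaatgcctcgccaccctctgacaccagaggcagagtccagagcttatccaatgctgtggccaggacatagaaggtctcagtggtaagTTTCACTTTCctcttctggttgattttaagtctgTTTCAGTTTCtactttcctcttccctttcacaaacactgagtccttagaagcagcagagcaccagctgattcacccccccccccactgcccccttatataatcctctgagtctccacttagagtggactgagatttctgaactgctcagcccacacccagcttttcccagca
Ifit2 start 1, chr19:34550444-34550743, plus strand: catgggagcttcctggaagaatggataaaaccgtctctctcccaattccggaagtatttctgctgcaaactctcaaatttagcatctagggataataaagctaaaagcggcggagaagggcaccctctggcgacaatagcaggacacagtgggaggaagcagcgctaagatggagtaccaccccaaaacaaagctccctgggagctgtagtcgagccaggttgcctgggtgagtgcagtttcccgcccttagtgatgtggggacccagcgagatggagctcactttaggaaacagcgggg
Ifit2 start 2, chr19:34550838-34551137, plus strand: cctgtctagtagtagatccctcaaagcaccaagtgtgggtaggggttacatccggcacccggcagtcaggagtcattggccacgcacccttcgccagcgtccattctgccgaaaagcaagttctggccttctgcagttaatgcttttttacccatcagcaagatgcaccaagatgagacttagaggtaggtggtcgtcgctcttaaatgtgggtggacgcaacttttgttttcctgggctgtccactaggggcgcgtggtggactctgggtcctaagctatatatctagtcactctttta
Ifitm3, chr7:141010695-141010994, minus strand: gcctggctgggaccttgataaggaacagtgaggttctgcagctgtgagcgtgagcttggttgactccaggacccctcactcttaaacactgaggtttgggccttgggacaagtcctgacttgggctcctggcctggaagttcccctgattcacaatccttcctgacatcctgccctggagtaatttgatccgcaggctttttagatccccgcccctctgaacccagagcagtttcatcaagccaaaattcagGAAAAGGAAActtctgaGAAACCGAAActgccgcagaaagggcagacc
Ifitm2, chr7:140955912-140956211, minus strand: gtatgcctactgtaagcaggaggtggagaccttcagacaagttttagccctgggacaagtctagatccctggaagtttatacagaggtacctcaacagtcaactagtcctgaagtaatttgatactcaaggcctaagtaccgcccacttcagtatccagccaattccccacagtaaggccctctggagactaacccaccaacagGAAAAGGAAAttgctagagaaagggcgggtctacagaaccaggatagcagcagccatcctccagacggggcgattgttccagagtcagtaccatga

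The ISRE core was found in the windows of 5 of the 7 genes. The window of Ifit1 held it at positions -104 to -95 and -85 to -76 from the start, both on the minus strand. That of Ifit3 held it at -156 to -147 and -122 to -113, and that of Ifit3b, 99.2% identical to the Ifit3 window over 260 aligned bases, at -188 to -179 and -154 to -145. Ifitm2 held 1 match at -46 to -37, and Ifitm3 held 2 just after its start, at 3 to 12 and 20 to 29. No match stood in either window of Ifit2 or in that of Ifitm1. The core stood in 3.44% of all 32851 promoter windows and in 3.99% of the 27025 genes with a window.

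The GAS core, TTCNNNGAA, which reads the same on both strands, was in 8.3% of windows and 9.55% of all genes. Among the 7 genes it was found once in the first window of Ifit2, at -241 to -233, and once in Ifitm3, at 14 to 22, where it overlaps an ISRE core. The core letters are a small part of either element, and a window without a match says only that these letters are not in it. Ifit1bl2 starts head to head with Ifit1, and because their windows overlap, its 2 matches are the same bases as those of Ifit1. Both windows of Ifit1bl1 held 1 match.

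**Figure D1:**
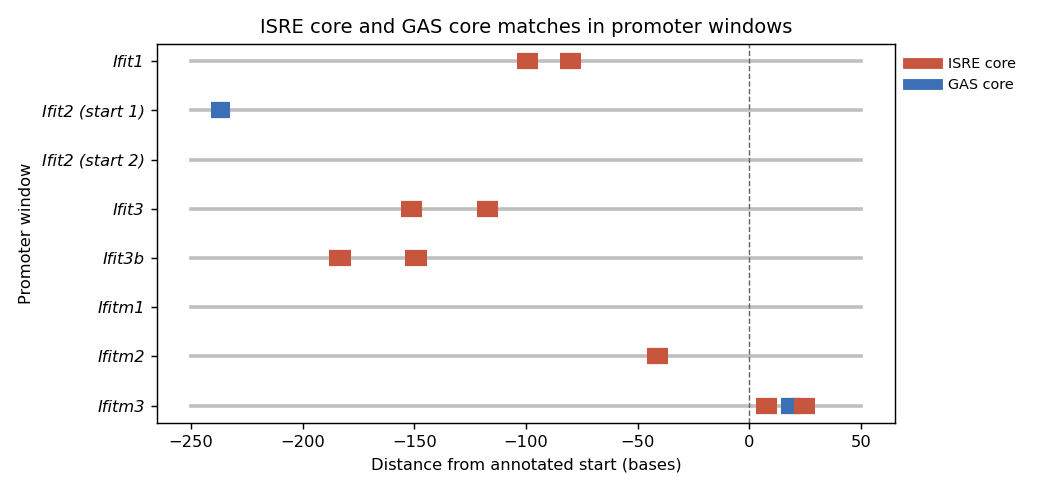
Matches to the ISRE core (red) and the GAS core (blue) along the 8 promoter windows of the 7 genes, with the distance from the annotated start in bases on the horizontal axis. ISRE cores stand upstream in Ifit1, Ifit3, Ifit3b and Ifitm2 and just after the start in Ifitm3, and the windows of Ifit2 and Ifitm1 hold none.

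The library totals lay between 133116830 and 149647278 counts, so the depth behind the 7 genes was similar in all libraries. Top2b had 18091 and 19117 counts in wt and 3745 and 3826 in Top2β-null cells, a log2 fold change of -2.26 ± 0.03 (SE) with groups that did not overlap. These counts cover the whole gene, and which of its exons the null allele lacks is not given in the sources used here. All 10 fibroblast markers were detected in both genotypes, with a summed level of 1303090 to 1327720 normalized counts in wt and 885751 to 890720 in Top2β-null cells. Fn1, Vim, Col1a1 and Col1a2 make up most of that sum. Fn1 (means 432866 and 337979), Vim (366185 and 204709) and Col1a1 (292818 and 112408) were lower by the adjusted p, and Col1a2 (188663 and 183788) was not. Among the 10 markers 4 were called higher, Dcn, Thy1, Pdgfrb and Pdgfra, and 3 lower, Postn, Col1a1 and Col3a1. Of 12 leukocyte markers, Adgre1 and Tyrobp were at 0 in all libraries, and 9 in wt and 8 in Top2β-null cells averaged under 10. Their sum went from 2443 to 2513 in wt to 1363 to 1365 in Top2β-null cells with Cd68 (means 1665 and 296), while the other 3 tested, Csf1r, Fcer1g and Itgam, were higher by the adjusted p, Itgam having reached the count filter only through the Top2β-null libraries. Of the 4 markers of plasmacytoid dendritic cells, Siglech was at 0 in all libraries, Ccr9 averaged 32.7 and 36.0, and Tcf4 and Bst2, itself an interferon-stimulated gene, were called higher, so that the sum went from at most 10115 to at least 23379. Of 5 germ cell markers, Dazl was at 0 in all libraries and Nanos3, at 12.9 and 27.7 on average, was higher by the adjusted p. Of 4 endothelial markers Kdr was called higher (means 70.1 and 204) and Tek was lower by the adjusted p (39.1 and 6.64), and of 4 epithelial markers Krt8 (45.4 and 5.09) and Cdh1 (21.2 and 8.08) were lower by the adjusted p. Tek, Krt8 and Cdh1 reached the count filter only through the wt libraries, so their direction was set by it. The part of these differences in the values below was not tested.

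Normalized counts are counts brought to a common library size with TMM factors from edgeR, and a gene was called when its adjusted p was below 0.05, its absolute log2 fold change above 1 and its mean above 100 normalized counts, which are the cut-offs of the study's methods. A gene was tested when 2 or more libraries held at least 10 counts of it. By these rules 5.52% of the 25085 genes tested were called higher in Top2β-null cells and 5.25% were called lower. Of the 6 fitted members, Ifit1, Ifit3 and Ifitm3 met the rule as higher and none as lower. By the adjusted p alone, which 32.8% of all genes passed as higher and 33.7% as lower, 5 members were on the higher side and 1, Ifit2, on the lower. The 5 include Ifit3b, which reached the count filter only through the Top2β-null libraries. Because the contrast chose the members, these counts only say where the members stood against the cut-offs, are no test of them, and nothing is read from them against the background.

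Ifit1, the RNA-binding sensor of the family, was nearly silent in wt cells. The wt libraries had 28 and 11 counts, against 799 and 809 for Top2β-null. The groups were far apart, and the wt libraries differed from each other more, in proportion, than the Top2β-null ones. In normalized counts the mean went from 19.4 ± 12.5 to 814 ± 18.6 (SD, n = 2), a log2 fold change of 5.39 ± 0.17 (SE). This was the largest value of the 6 fitted members and the 587th highest of 25085 genes. Leaving out a library moved it between 4.83 and 6.23, with the ends set by the wt libraries.

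Ifit2, whose product pairs with IFIT3, was the abundant IFIT gene in both genotypes and the only member that was lower in Top2β-null cells. Its counts were 7410 and 7929 in wt and 4520 and 4634 in Top2β-null cells. The replicates lay close together and the groups did not overlap. The normalized means were 7569 ± 127 and 4635 ± 64.8 (SD, n = 2), a log2 fold change of -0.71 ± 0.03 (SE), or 0.612 times the wt level. Its size lay under the fold cut-off, so Ifit2 was not called. It was 21074th of 25085 genes from the highest, at the 16th percentile, so a decrease of this size was common among the genes tested. Its level among all genes went from the 87th to the 80th percentile.

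Ifit3, the partner of IFIT2, was found at a low level in wt cells, with 78 and 88 counts. The Top2β-null libraries had 257 and 267. Normalized means were 81.9 ± 4.44 and 265 ± 1.22 (SD, n = 2), and the log2 fold change was 1.69 ± 0.14 (SE). Ifit3b, its near copy, had 9 and 8 counts in wt and 55 and 78 in Top2β-null cells. Its normalized mean went from 8.41 ± 0.959 to 67.1 ± 14.3 (SD, n = 2), a log2 fold change of 2.98 ± 0.35 (SE), and it was kept from a call by the mean cut-off alone. Ifit3b passed the filter on low counts only through the Top2β-null libraries. The groups of both genes lay apart.

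The split of reads between Ifit3 and Ifit3b is uncertain. Their coding sequences are identical at 1198 of 1209 positions (99.1%), and 18.5% of all stretches of 150 bases in Ifit3 exons, and 51.2% of those of 50 bases, recur in another gene, Ifit3b. Summed before the fit, a step added after the data were seen, the pair had 87.8 and 92.7 normalized counts in wt and 323.1 and 341.7 in Top2β-null cells, with a log2 fold change of 1.88 ± 0.13 (SE). The sum had the same direction as each copy, in both Top2β-null libraries. Ifit2 shares no stretch of either length with another gene. Ifit1 shares 1.24% of its 150-base stretches, all with Ifit1bl2, and 7.13% of those of 50 bases, mostly with Ifit1bl2.

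**Figure D2:**
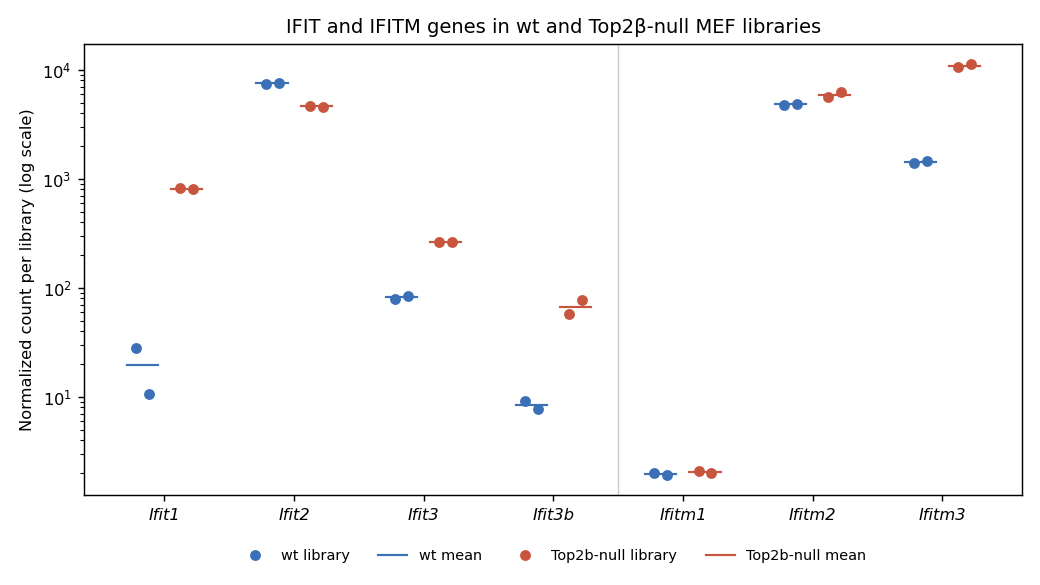
Normalized counts (vertical, log scale) of the 7 genes in each wt (blue) and Top2β-null (red) library, with points for the libraries and bars for the group means. Ifit2 has a mean of 7569 in wt and 4635 in Top2β-null, while Ifit1, Ifit3, Ifit3b and Ifitm3 are higher in both Top2β-null libraries, and Ifitm1 stays at 2 counts.

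Ifitm3, the endosomal restriction factor, gave the widest gap in counts. It had 1394 and 1497 counts in wt and 10214 and 11321 in Top2β-null cells. The normalized means were 1426 ± 27.6 and 10896 ± 448 (SD, n = 2), a 7.64-fold difference and a log2 fold change of 2.93 ± 0.04 (SE). The groups did not overlap, and among all genes Ifitm3 moved from the 88th to the 98.8th percentile of level. It shares no 150-base stretch with another gene, but 10% of its 50-base stretches recur elsewhere.

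Ifitm2, its neighbour and close relative, differed far less. Counts were 4695 and 5070 in wt and 5410 and 6269 in Top2β-null cells. The groups did not overlap, but the Top2β-null libraries lay further from each other than the wt ones. The normalized means were 4818 ± 112 and 5906 ± 428 (SD, n = 2), and the log2 fold change was 0.29 ± 0.04 (SE), which leaving out a library moved between 0.24 and 0.41. The gene model Gm45717, which spans Ifitm5 and Ifitm2, covers 40.9% of the exonic bases of Ifitm2 on the same strand, so counts of both are uncertain, and Gm45717 itself had 2156 and 2322 counts in wt and 2704 and 3017 in Top2β-null cells. Summed, again after the data were seen, the pair had a log2 fold change of 0.32 ± 0.04 (SE). Of the 50-base stretches of Ifitm2, 48.5% recur in another gene, or 22.8% with Gm45717 left out. Ifitm1 had 2 counts in each of the 4 libraries, under the floor of 3 counts per library, so no fold was formed.

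Within a library, ratios between members need no scaling. The log2 ratio of Ifit2 to the sum of Ifit1, Ifit3 and Ifit3b was 6.01 and 6.21 in the wt libraries. The Top2β-null libraries had a mean of 2.02 ± 0.013 (SD, n = 2), a difference of -4.10 with a pooled SD of 0.10. Ifit2 made up 98.6% ± 0.139 of the counts of the 4 IFIT genes in wt and 80.2% ± 0.147 in Top2β-null cells (SD, n = 2). The members were chosen because Ifit2 moved against its cluster neighbours, so these differences are a description and no test. With each denominator alone, the log2 ratio differed by -6.26 for Ifit1, -2.40 for Ifit3 and -3.69 for Ifit3b (pooled SD 0.72, 0.04 and 0.27). Against Ifit1, the wt libraries lay apart, at 8.05 and 9.49.

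Per kilobase of exon, which allows genes of unlike length to be compared, Ifit2 held 97.1% of the summed IFIT level in wt and 70.6% in Top2β-null cells. The exon lengths came from a later annotation release than the counts, so these shares are approximate. The share of Ifit1 went from 0.370% ± 0.242 to 18.3% ± 0.231, that of Ifit3 from 2.36% ± 0.0927 to 9.09% ± 0.0507 and that of Ifit3b from 0.212% ± 0.0273 to 2.01% ± 0.449 (SD, n = 2). Ifit2 thus remained the first IFIT transcript in every library, and Ifit1 took the second place in the Top2β-null libraries, which Ifit3 held in wt. Among the 3 IFITM genes, Ifitm3 made up 22.8% ± 0.0689 of counts in wt and 64.9% ± 0.716 in Top2β-null cells (SD, n = 2), and Ifitm2 77.1% and 35.1%. The log2 ratio of Ifitm3 to Ifitm2 went from -1.76 ± 0.0057 to 0.88 ± 0.045 (SD, n = 2), so the more abundant gene of the pair was Ifitm2 in wt and Ifitm3 in Top2β-null cells.

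**Figure D3:**
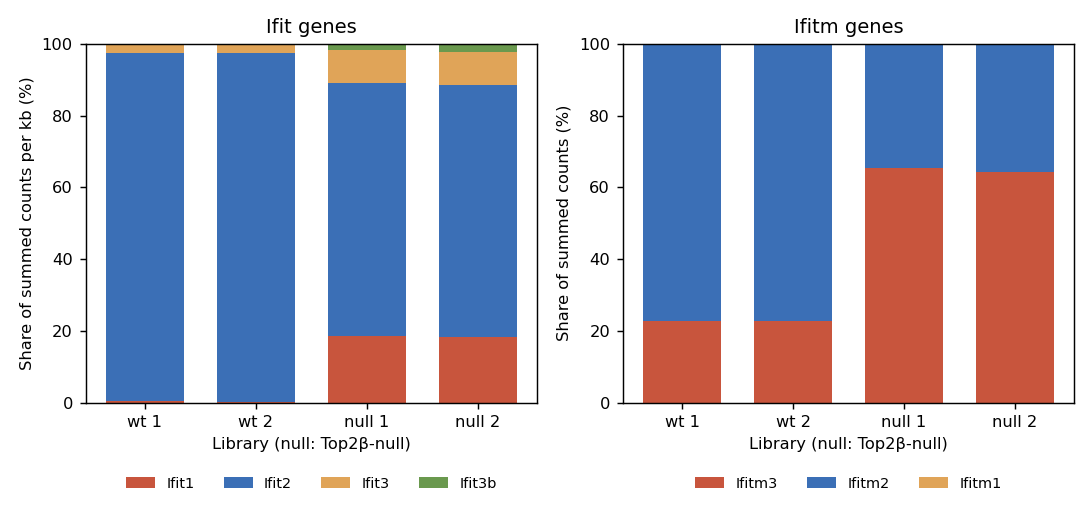
Make-up of the IFIT family (left, share of summed counts per kilobase of exon) and of the IFITM family (right, share of summed counts) in each of the 4 libraries, in percent. Ifit2 makes up 97.1% of the IFIT sum in wt and 70.6% in Top2β-null, and Ifitm3 22.8% and 64.9% of the IFITM sum.

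Ordered by level per kilobase, in normalized counts, wt cells had Ifitm2 first at 7356 ± 171, then Ifitm3 at 2104 ± 40.6, Ifit2 at 1927 ± 32.3 and Ifit3 at 46.9 ± 2.54 (SD, n = 2). Ifit1 at 7.32 ± 4.70 and Ifit3b at 4.20 ± 0.480 followed and were closer together than the spread of Ifit1, and Ifitm1 came last at 1.81. In Top2β-null cells Ifitm3 was first at 16070 ± 661, before Ifitm2 at 9017 ± 654, Ifit2 at 1180 ± 16.5, Ifit1 at 307 ± 6.99, Ifit3 at 152 ± 0.699 and Ifit3b at 33.6 ± 7.17 (SD, n = 2), with every step larger than the spread. The order within wt thus put the 3 abundant members far above the others, and in Top2β-null cells Ifit1 stood next to Ifit2, with Ifit3 and Ifit3b below it.

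The other genes of the families did not all move with the members. Ifit1bl1 had 34 and 30 counts in wt and 15 and 12 in Top2β-null cells, and Ifit1bl2 22 and 32 against 12 and 18, with log2 fold changes of -1.20 ± 0.36 and -0.81 ± 0.38 (SE). Both thus had negative values, as Ifit2 did, although they stand between Ifit3 and Ifit1, and both were at a low level. Ifit1bl1 passed the adjusted p by edgeR (0.0086) and Ifit1bl2 did not (0.0752). Ifitm10, a relative outside the cluster, fell from 162 and 170 counts in wt to 63 and 56, a log2 fold change of -1.44 ± 0.17 (SE) with an adjusted p of 1.82e-06 by edgeR's quasi-likelihood test. Ifitm5, known from bone-forming cells, had 83 and 75 counts against 102 and 106, a log2 fold change of 0.43 ± 0.18 (SE). Ifitm6 and Ifitm7 had at most 6 counts in any library and were not tested.

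The flanking genes were read to see how far the values reached beyond the families. Of the 24 genes, 6 on each side of each cluster, 17 were tested, 2 were called higher and 2 lower, beside 5.52% and 5.25% of all genes, and the median log2 fold change was 0.16. By the adjusted p alone 7 were higher and 6 lower, beside 32.8% and 33.7% of all genes, so neither count stood far from the background. Lipa, the lysosomal acid lipase gene next to Ifit2, fell from 5367 and 5459 counts to 2504 and 2655 (log2 fold change -1.03 ± 0.03 SE, adjusted p = 1.98e-13 by edgeR). It stood so near the cut-off that it was not called with total-count scaling or without Top2β-null replicate 1. Acta2, smooth muscle actin, fell from 103103 and 110676 counts to 5075 and 5484 (log2 fold change -4.30 ± 0.03 SE, adjusted p = 4.71e-21 by edgeR).

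On the far side of Ifit1, Pank1, a pantothenate kinase gene, rose from 1257 and 1359 counts to 3033 and 3110 (log2 fold change 1.27 ± 0.04 SE, adjusted p = 4.10e-13 by edgeR). Beside the IFITM cluster, B4galnt4, a glycosyltransferase gene, rose from 588 and 620 counts to 2437 and 2478 (log2 fold change 2.06 ± 0.05 SE, adjusted p = 5.97e-15 by edgeR), and Sigirr, with 16 and 13 against 122 and 120 counts, passed the adjusted p but not the mean cut-off. Pkp3, a plakophilin gene between B4galnt4 and Sigirr, went the other way, from 144 and 177 to 68 and 90 counts (log2 fold change -0.98 ± 0.18 SE), and passed the adjusted p by edgeR but not the fold cut-off. On the side of Ifitm2, the nearest flanking gene Pgghg had a log2 fold change of 0.30 ± 0.06 (SE), close to that of Ifitm2, and passed the adjusted p, while the proteasome gene Psmd13 and the deacetylase gene Sirt3 had -0.02 ± 0.03 and -0.16 ± 0.07 (SE) and did not. On chromosome 7 the tested genes from Cox8b to B4galnt4, Ifitm2 and Ifitm3 among them, had positive values. Psmd13 and Pkp3, on either side, had negative ones. Cox8b (0.36 ± 0.35 SE) and Psmd13 did not pass the adjusted p, and Sigirr, past Pkp3, was positive again (3.09 ± 0.26 SE). No bounds are therefore read from this run of signs. On chromosome 19 Lipa, Ifit2, Ifit1bl1 and Ifit1bl2 had negative values, Ifit1bl2 without passing the adjusted p. Ifit3, Ifit3b and Ifit1 had positive ones.

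**Figure D4:**
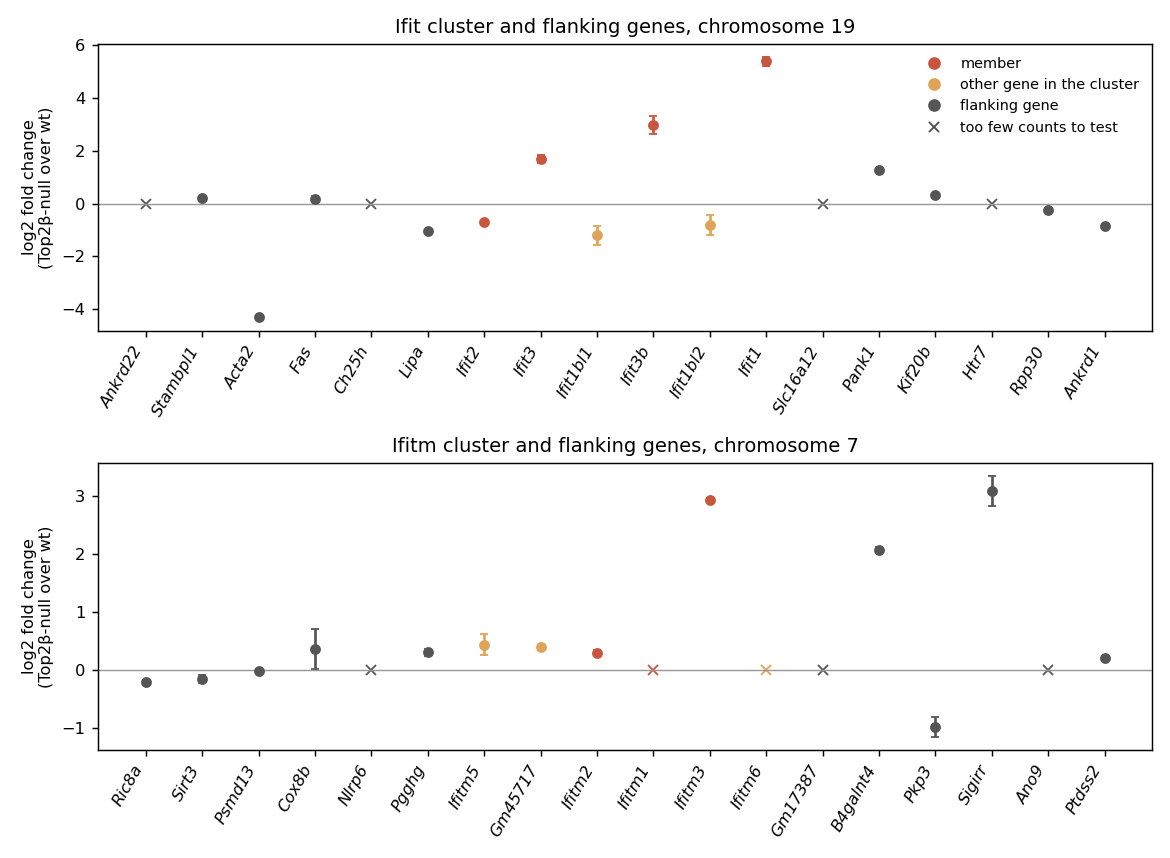
log2 fold change (Top2β-null over wt, vertical, with SE bars) of the genes of each cluster and the 6 genes on each side, in chromosome order, with members in red, other cluster genes in yellow, flanking genes in grey and crosses for genes with too few counts. Ifit2 (-0.71), Lipa, Ifit1bl1 and Ifit1bl2 stand below 0, while Ifit3, Ifit3b and Ifit1 stand above.

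To place the members in their pathway, 40 other interferon-stimulated genes were read. Like the lists read below, this list was drawn up with earlier results of these data known. Its counts are a description and no independent support for the members. Of the 39 tested, 24 were called higher and 0 lower by edgeR, and all 39 passed the adjusted p on the higher side, beside 5.52%, 5.25% and 32.8% of all genes. However, 18 of the 39 reached the count filter only through the Top2β-null libraries and so had to be higher there. Of the 21 that reached it in both wt libraries, 17 were called higher and 0 lower, all 21 passed the adjusted p as higher, and the median log2 fold change was 3.26. Over the 39 the median was 5.30, or 5.12 with the 13 genes at or under 3 counts in both wt libraries set at their bound, against -0.01 over all genes. Trim25, a ubiquitin ligase of RIG-I signalling, had 14 and 11 counts in wt and 7887 and 8242 in Top2β-null cells (log2 fold change 9.36 ± 0.08 SE, adjusted p = 8.94e-21 by edgeR). Oasl2 and Ifi44 were at the floor in wt and at least 149-fold and at least 145-fold higher in Top2β-null cells. The smallest value in this list was that of Ifi35, 0.32 ± 0.06 (SE), so the values of all 21 genes that reached the filter in wt lay above that of Ifit2, while Ifi35 and Ifitm2 were closer together than their errors.

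Of 26 genes for ligands, receptors and signalling of the interferon pathway, 23 were tested, 6 were called higher and 0 lower by edgeR, beside 5.52% and 5.25% of all genes. Irf9 and Stat2, whose products act together at the ISRE, rose by log2 fold changes of 1.94 ± 0.05 and 1.15 ± 0.05 (SE), with adjusted p of 3.64e-15 and 3.02e-12 by edgeR. Irf7, which amplifies the type I response, rose from 201 and 218 to 565 and 696 counts, Irf1 from 1031 and 1093 to 2403 and 2470, and Irf5 from 1917 and 2036 to 4891 and 5410. The receptor genes Ifnar1 and Ifnar2 had log2 fold changes of 0.33 ± 0.03 and 0.61 ± 0.04 (SE), with an adjusted p of 7.92e-08 and 4.77e-09 by edgeR, under the fold cut-off. Transcripts of the ligand Ifnb1 were at 1 and 3 counts in wt and 2 and 1 in Top2β-null cells, a level at which no difference was detectable. By the adjusted p alone, 18 of these genes were higher and 1, Ifngr1, lower, beside 32.8% and 33.7% of all genes. Of the 20 that reached the count filter in both wt libraries, 17 were higher.

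Genes for partners of the proteins were read next. Of 18 genes for IFIT targets and the capping machinery, among them the subunits of the initiation factor eIF3 and the cap methyltransferases, 0 were called higher and 1 lower by edgeR, near the 5.52% and 5.25% of all genes, and the median log2 fold change was -0.26. Without wt replicate 1, or without Top2β-null replicate 1, 2 were called lower. By the adjusted p alone 1 was higher and 11 lower, beside 32.8% and 33.7% of all genes. The gene called was Cmtr2, which methylates the cap-adjacent ribose at the second nucleotide, from 7316 and 7755 to 2447 and 2739 counts (log2 fold change -1.50 ± 0.03 SE, adjusted p = 1.92e-15 by edgeR). Cmtr1, which methylates the first, had a log2 fold change of -0.03 ± 0.03 (SE). Of 16 genes for IFITM trafficking and modification, such as the AP-2 subunits and the palmitoyltransferases, none was called in either direction by edgeR, 4 were higher and 7 lower by the adjusted p alone, beside the same shares, and the median was -0.02.

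**Figure D5:**
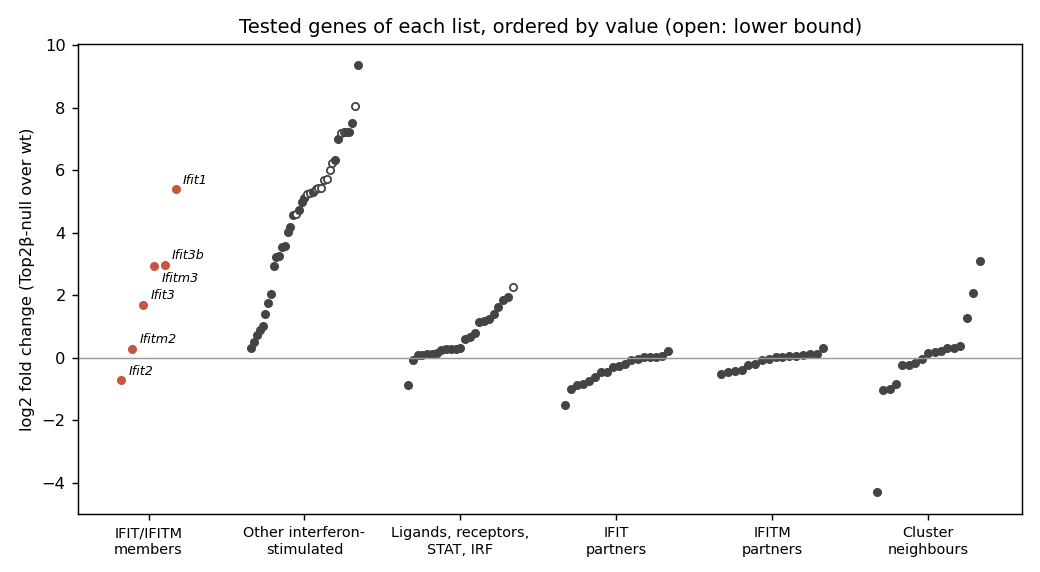
log2 fold change (Top2β-null over wt, vertical) of every tested gene of 6 lists, ordered within each list, with open circles for lower bounds of genes at the floor in wt. All 39 other interferon-stimulated genes lie above 0, 18 of which passed the count filter only through the Top2β-null libraries, and Ifit2 lies below 0 at -0.71.

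The ISRE core stood in the windows of 53.6% of the 28 other interferon-stimulated genes with a window, against 3.99% of all genes and 5 of the 7 members, and in 16.7% of the 24 ligand, receptor and signalling genes. For the GAS core the order of these lists was the other way round, with 21.4% of the 28 and 33.3% of the 24 genes, against 9.55% of all genes and 2 of the 7 members. Among the 6 fitted members, which were chosen on this contrast, the 5 genes with a match had a positive log2 fold change. Only Ifit2 had no match and a negative value, and Ifitm1, also without a match, was not fitted. The windows of Ifit3 and Ifit3b are near copies, so nothing is read from this split. Ifit1bl1 and Ifit1bl2 had matches and negative values, Ifit1bl2 without passing the adjusted p. These are counts of letters in windows at annotated starts, and no binding was measured.

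Many genes had a profile like that of Ifit2 over the 4 libraries. By the root mean square distance of log2 levels after centring, the nearest genes were Narfl at 0.00463, Ccdc134 at 0.0062 and Cep170b at 0.00624, with log2 fold changes of -0.71, -0.72 and -0.71. In all 1486 genes lay within 0.1 of Ifit2. With 4 libraries in 2 groups this measure holds little more than the difference between genotypes, and nothing on function is read from it.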

How the data were processed

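Total RNA was extracted with TRI Reagent, treated with DNase and made into stranded libraries after removal of ribosomal RNA. The authors used Trim Galore! on the paired-end reads, STAR for alignment to mm10 with multiply aligned reads retained, and TEtranscripts to count Gencode genes and RepeatMasker families. Its mode and strand setting are not given in the sources used here, and they decide how reads of near-identical genes were divided. The deposited table holds raw counts of genes and repeat families, not normalized, with 133116830 to 149647278 counts per library.

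Of 54842 gene identifiers, 54409 matched GENCODE M21, from which symbols, GRCm38 positions and exon lengths were taken. The authors counted over an earlier Gencode release, so gene models, lengths and overlaps may differ slightly. Exon length is the merged length over all annotated transcripts of a gene. Members and lists were chosen with earlier results of these data known. The named genes were the 7 members, the other genes of both families, Top2b, Stat2, Irf9, Irf7, Irf1, Ifnb1, Ifnar1 and Ifnar2, the flanking genes, and the 3 called genes of each list with the largest absolute log2 fold change in each direction. 1 gene that this rule takes is not reported here. Others named (Irf5, Ifngr1, Cmtr1, Ifi35 and the cell type markers) were chosen after their values were seen.

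In R 4.3.3, the 26566 features (25085 genes) that reached 10 counts in 2 or more libraries were fitted with edgeR 4.0.16 (TMM over genes and repeats, quasi-likelihood test, genotype as the only term), with Benjamini-Hochberg adjustment across all of them. The SE was obtained as the size of the log2 fold change over the root of F. The authors applied the same cut-offs to DESeq2 results, and DESeq2 1.42.0 was an alternative here. Over all features, the chi-square between replicates was 3.65 per degree of freedom for wt and 5.07 for Top2β-null, above counting noise. These values do not say whether the libraries of a genotype came from separate cultures. All 4 libraries were kept. An exact permutation test of 2 against 2 libraries cannot give a p below 0.33, so none was run. RefSeq promoter windows matched all 7 members, and a table of proteins was not used here. The floor of 3 counts covers counting error only.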

Additional observations from a re-analysis of the deposited data

How the results depend on the processing

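Alternatives were DESeq2, TMM factors from genes only, total-count scaling, no filter on low counts, at least 100 counts in every library, the replicate number as a block, the adjusted p alone, and leaving out each library in turn. The log2 fold change of Ifit2 stayed between -0.71 and -0.64 under the first 6 and between -0.74 and -0.67 with a library left out, and no fitted member changed sign under any alternative that could be run. Ifit1, Ifit3 and Ifit3b had too few wt counts for the filter at 100 counts. With that filter 1 member, 7 other interferon-stimulated genes and 816 of all genes were called higher, and 924 of all genes were called lower. Fewer genes were tested there. With the adjusted p alone, 5 members were higher and 1 lower, which is no test of members chosen on this contrast, and 39 other interferon-stimulated genes were higher. Ifit3b and 18 of the 39 reached the count filter only through the Top2β-null libraries. With the same cut-off, 18 interferon axis genes were higher and 1 lower, 1 IFIT partner was higher and 11 lower, 4 IFITM partners were higher and 7 lower, 7 cluster neighbours were higher and 6 lower, and 8218 genes were higher and 8445 lower. Total-count scaling left 1 cluster neighbour called lower, since Lipa lay at the fold cut-off. With a library left out, the cluster neighbours called lower were between 1 (without Top2β-null replicate 1) and 3, and the IFIT partners called lower between 1 and 2 (2 without wt replicate 1 or without Top2β-null replicate 1), while 17 to 28 other interferon-stimulated genes were called higher. With 1 library in a group, its spread was assumed to equal that of the other group.

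Against 1 denominator in place of the sum, the difference in the log2 ratio of Ifit2 was -6.26 for Ifit1, -2.40 for Ifit3 and -3.69 for Ifit3b, beside -4.10 for the sum. The value for Ifit1 had the widest spread, a pooled SD of 0.72. In the fit with the replicate block the log2 fold change of Ifit2 was -0.71 and the block changed no call of a member. Deviations of same-numbered libraries correlated at 0.0128 over 20433 features, so the numbers did not pair the libraries. Low counts limit Ifit1 and Ifit3b in wt, and Ifitm1, Ifitm6, Ifitm7 and Ifnb1 throughout.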
